A study of Mus musculus with 48 samples.

Results

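Cell cycle genes were followed in mouse liver as a set of 40 genes named by symbol, of 37583 genes in the deposited RNA table. All 40 were found by symbol, Cdk1 under its current symbol, and all 40 passed the filter on low values, as did 17771 genes in all. The names were chosen by function and not by a threshold on these values, but with earlier results of these data known. The study asked how the transcription factors C/EBPα and HNF4α mark and regulate genes during liver development. RNA came from livers in 8 libraries, 3 from C/EBPα knockout mice (genotype C/EBPa lox/lox / Alfp-Cre), 2 from HNF4α knockout mice (HNF4a lox/lox / Alfp-Cre) and 3 from wild-type (WT) mice. All were F1 animals of a C57Bl6/CBA cross, untreated and, per the labels, on a chow or a high-fat diet. The sample labels put these livers at 60 days after birth, whereas the series text puts them at E18.5. Binding of both factors was mapped by chromatin immunoprecipitation (ChIP-seq) in WT liver at E15.5, E18.5, P0.5, P14 and P60, with 2 replicates per factor and stage. Alfp-Cre is driven by albumin and alpha-fetoprotein regulatory elements, so deletion is aimed at hepatocytes and bile duct cells, whereas blood, endothelial and stellate cells keep the gene. The labels do not say whether a library came from 1 liver or a pool, so p-values measure the spread between these libraries.

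The cell cycle is driven by cyclins that switch on cyclin-dependent kinases in turn. D-type and E-type cyclins carry cells out of G1, helicase loading and nucleotide supply then allow DNA replication, and A-type and B-type cyclins with Cdk1 and the mitotic kinases carry cells through division. Fetal liver is rich in dividing hepatoblasts and red cell precursors, whereas adult hepatocytes are mostly quiescent, and C/EBPα is known as a factor that restrains hepatocyte division.

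The targeted genes were low in their own knockouts. Cebpa had 322, 419 and 998 normalized reads in C/EBPα knockout livers, against 9999, 9594 and 5511 in WT livers (log2 -3.98 ± 0.44 SE, adjusted p = 0.000413 with limma). Hnf4a had 1238 and 2444 normalized reads in HNF4α knockout livers, against 9098, 4948 and 6718 in WT livers (log2 -1.95 ± 0.45, adjusted p = 0.033 with limma). Each gene was also below every WT library in the other knockout, without passing. Cebpa had 3886 and 4500 in the HNF4α knockout (log2 -0.95 ± 0.49, adjusted p = 0.2985 with limma). Hnf4a had 2492, 2530 and 4510 in the C/EBPα knockout (log2 -1.14 ± 0.40, adjusted p = 0.188 with limma). Library totals lay between 13.45 M and 25.99 M normalized reads. Hepatocyte markers were present in every library, with Alb at 127285 to 863323 in the knockouts and 1491169 to 3098691 in WT, and Afp, the fetal plasma protein, at 97621 to 381833 in the knockouts and 499143 to 706964 in WT. Erythroid markers made up 11.94%, 17.98% and 5.34% of all normalized reads in WT replicates 1, 2 and 3. Which of the 2 stated ages holds for these livers was not tested. The labels describe male mice, but Ddx3y, on the Y chromosome, was at 1317 in WT replicate 1 and at 6 to 109 in the other 7 libraries. Skeletal muscle markers summed to 658015 in HNF4α knockout replicate 1, against 111 to 1503 in the other 7 libraries.

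Promoter letters are shown for the cell cycle genes whose RNA passed the test in any comparison and that have an entry, and for 2 others chosen after their values were seen, Mcm3 because C/EBPα peaks lay there at every stage and Cdk1 because it holds 3 of the motif types searched. Each run is the 250 bases before the gene start in RefSeq's mouse build GRCm38.p6, 5′ to 3′ on the gene's strand, with any match to the searched motifs in capitals. The 2 Cdkn1a entries are for 2 of its annotated starts. The positions are Ccne1 chr7:38107491-38107740, minus strand, Plk1 chr7:122159185-122159434, plus strand, Cdkn1a chr17:29090729-29090978, plus strand and chr17:29093519-29093768, plus strand, Mcm3 chr1:20820313-20820562, minus strand, and Cdk1 chr10:69352913-69353162, minus strand.
Ccne1: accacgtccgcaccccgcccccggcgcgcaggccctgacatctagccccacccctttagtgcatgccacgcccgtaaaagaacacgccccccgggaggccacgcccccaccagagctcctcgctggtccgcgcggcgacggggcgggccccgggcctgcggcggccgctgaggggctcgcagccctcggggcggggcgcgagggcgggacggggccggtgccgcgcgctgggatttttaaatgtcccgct
Plk1: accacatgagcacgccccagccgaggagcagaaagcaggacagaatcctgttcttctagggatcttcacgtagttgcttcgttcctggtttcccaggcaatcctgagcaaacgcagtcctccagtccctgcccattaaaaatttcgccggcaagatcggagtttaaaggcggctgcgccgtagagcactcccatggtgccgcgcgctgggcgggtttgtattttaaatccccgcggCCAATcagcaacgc
Cdkn1a, entry 1: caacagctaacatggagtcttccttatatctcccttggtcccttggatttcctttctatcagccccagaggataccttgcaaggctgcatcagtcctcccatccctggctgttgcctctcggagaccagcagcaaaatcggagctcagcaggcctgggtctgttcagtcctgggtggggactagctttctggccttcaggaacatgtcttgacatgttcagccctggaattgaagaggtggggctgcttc
Cdkn1a, entry 2: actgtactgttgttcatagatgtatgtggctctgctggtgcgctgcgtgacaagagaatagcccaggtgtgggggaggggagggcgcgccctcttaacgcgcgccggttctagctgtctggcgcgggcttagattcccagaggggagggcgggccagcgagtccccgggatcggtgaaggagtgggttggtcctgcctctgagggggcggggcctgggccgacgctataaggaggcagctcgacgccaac
Mcm3: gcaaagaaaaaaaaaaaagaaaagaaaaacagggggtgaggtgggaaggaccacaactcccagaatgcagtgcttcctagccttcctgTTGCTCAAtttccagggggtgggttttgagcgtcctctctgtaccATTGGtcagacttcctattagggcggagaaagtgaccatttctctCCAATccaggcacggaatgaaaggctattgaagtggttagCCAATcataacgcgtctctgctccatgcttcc
Cdk1: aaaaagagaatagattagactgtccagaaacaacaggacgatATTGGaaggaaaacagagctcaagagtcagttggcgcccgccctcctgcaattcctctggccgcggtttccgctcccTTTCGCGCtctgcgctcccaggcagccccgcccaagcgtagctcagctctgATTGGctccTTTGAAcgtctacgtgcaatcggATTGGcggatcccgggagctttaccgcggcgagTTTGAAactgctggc

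Both strands were searched for CCAAT (the CCAAT box), TTTGAA (CHR, an element of late cell cycle promoters), TTTGGCGC, TTTCGCGC, TTTCCCGC and TTTGCCGC (E2F), TTGCNNAA (C/EBP) and CAAAGNCCA (HNF4). Of the 40 genes, 33 have an entry, and the first entry of each gene was used for the shares. A CCAAT box, counted apart from the C/EBP motif TTGCNNAA, stood in 25 of the 33 promoters, or 75.8%, against 34.5% of 27025 genes. An E2F motif stood in 5 promoters, those of Mcm5, Mcm6, Mcm7, Cdc6 and Cdk1, which is 15.2% against 1.91% of all genes. CHR stood in 9, or 27.3%, against 16.3%. The C/EBP motif was in 2 promoters, Mcm3 and Pcna, or 6.06% against 9.55% of genes, and the HNF4 motif in none, against 1.67%. The E2F motifs can overlap one another on the 2 strands. The 33 promoters were also richer in GC, with a median of 56.8% against 52.0%, and held a median of 18 CpG against 6. Among the printed promoters, Cdk1 held CHR 71 and 15 bases before the start, CCAAT boxes at 208, 80 and 48 bases and an E2F motif at 131 bases, whereas Plk1 held only a CCAAT box at 14 bases. Ccne1 and both Cdkn1a entries held none of these letters.

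In the C/EBPα knockout most cell cycle genes had estimates above WT, and the 2 largest were those of the D-type cyclin genes Ccnd1 and Ccnd2. Ccnd1, Ccnd2 and Ccne1, whose cyclins act in G1, and the mitotic kinase gene Plk1 rose, and none of the 40 fell. Ccnd1 stayed past the threshold in all 8 fits that left out 1 library, Ccnd2 and Ccne1 in 1 of 8 each and Plk1 in 0 of 8, and with no variance trend or only the 2 groups compared Ccnd1 alone passed. With limma on log2(value + 1) and Benjamini-Hochberg adjustment over 17771 genes, 4 of 40 genes passed as higher, against 0.883% of all genes tested, and 0 as lower, against 2.86%, with 14 higher and 0 lower at an unadjusted p under 0.05, against 5.71% and 8.71% of all genes. The estimate was above 0 in 38 of 40 genes, against 51.5% of all genes, with Ccne2 and Cdkn1a as the exceptions. The median log2 change of the 40 genes was 0.66, against 0.03 for all genes. In 17 of 40 genes every knockout library was above every WT library, against 8.54% of all genes, and in 0 every knockout library was below, against 10.3%.

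**Figure D1:**
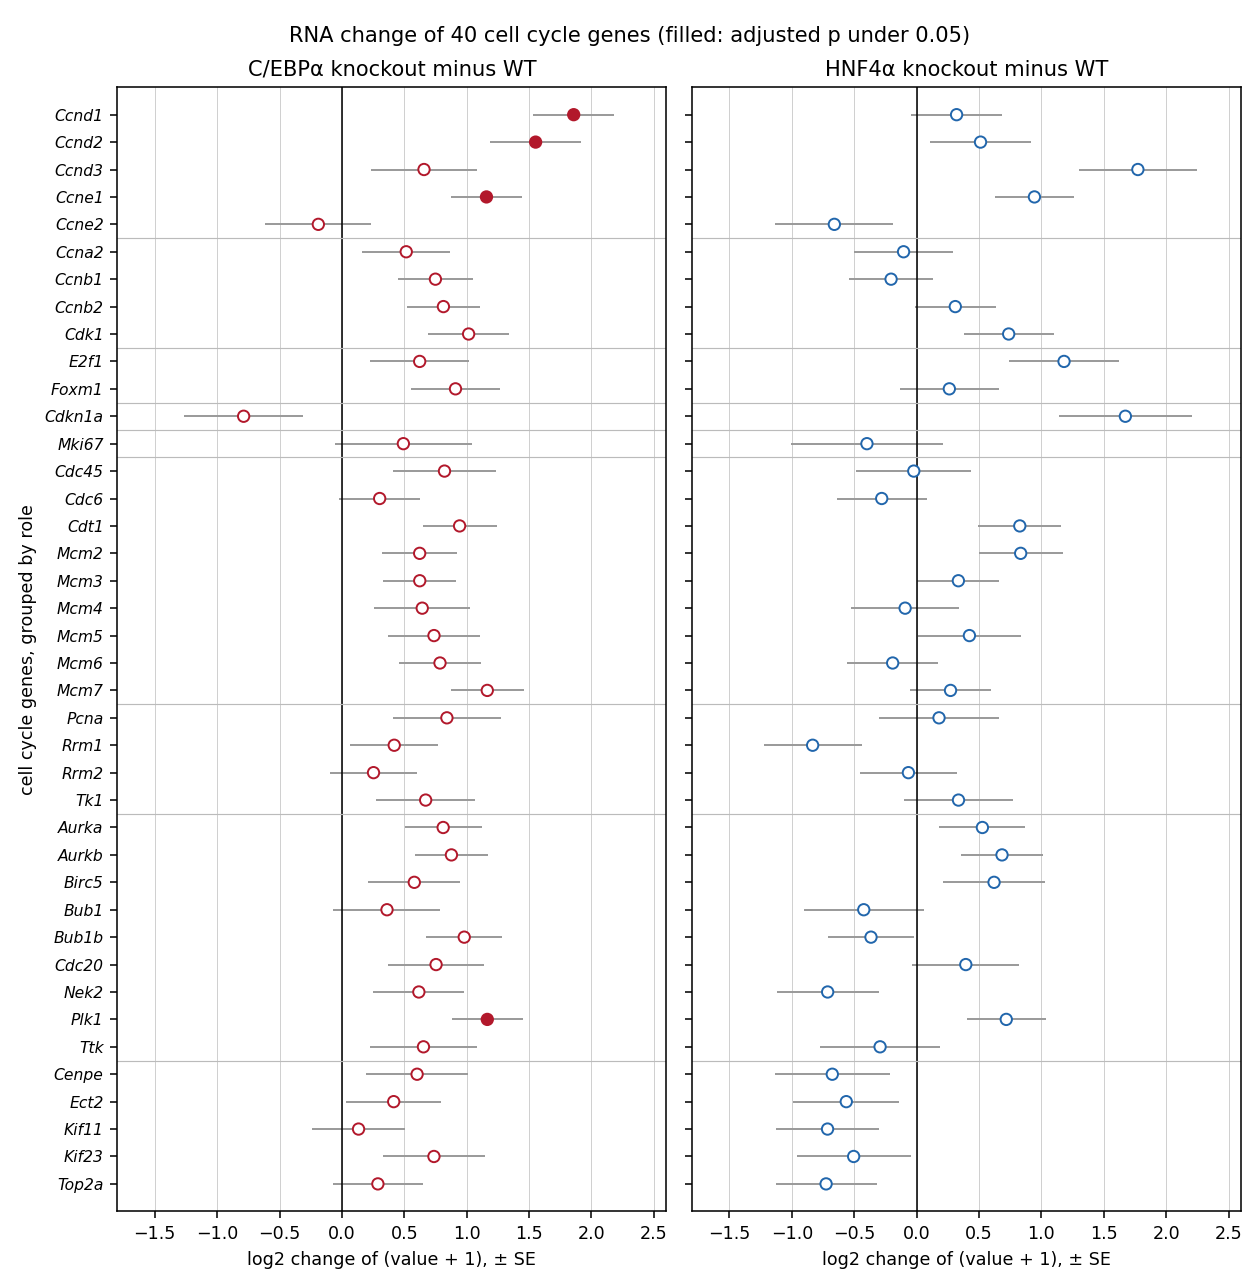
Log2 change of (normalized reads + 1) for the 40 cell cycle genes, C/EBPα knockout minus WT on the left and HNF4α knockout minus WT on the right, with bars for the SE and filled points for an adjusted p under 0.05. Genes are grouped by role from the G1 cyclins at the top to the spindle genes at the bottom, and 38 of 40 points lie right of 0 on the left panel and 21 of 40 on the right panel.

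Ccnd1 encodes cyclin D1, which couples growth signals to G1 exit (chr7:152115836-152125774, mm9, minus strand). It had 3618, 3191 and 2069 normalized reads in C/EBPα knockout livers, against 856, 744 and 786 in WT livers. All 3 knockout values lay above all WT values, a 3.62-fold difference (log2 1.86 ± 0.32 SE, adjusted p = 0.00785). The HNF4α knockout had 1241 and 792, which overlapped WT (log2 0.32 ± 0.36, adjusted p = 0.644). Ccnd2, the cyclin D2 gene (chr6:127075797-127101066, mm9, minus strand), had 1475, 2905 and 1305 in the C/EBPα knockout, against 559, 522 and 757 in WT. The groups did not overlap, and the difference was 2.93-fold (log2 1.55 ± 0.36, adjusted p = 0.0386).

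Ccne1 encodes cyclin E1, the partner of Cdk2 at the entry to S phase (chr7:38883003-38892553, mm9, minus strand). It had 1422, 1527 and 1309 normalized reads in the C/EBPα knockout, against 718, 671 and 529 in WT, a 2.23-fold difference with no overlap (log2 1.16 ± 0.28, adjusted p = 0.0473). Its paralog Ccne2 had 1013, 1507 and 424 in the C/EBPα knockout, against 947, 899 and 1127 in WT, so the knockout libraries fell on both sides of the WT range (log2 -0.19 ± 0.42, adjusted p = 0.907). Ccnd3, the cyclin D3 gene, had 3316, 8113 and 6447 in the C/EBPα knockout, against 2974, 4430 and 3350 in WT, with overlapping groups (log2 0.66 ± 0.42, adjusted p = 0.563). Of the 5 G1 cyclins, 3 passed as higher, against 0.883% of all genes. Ccnd1 overlaps Oraov1 and Ccnd2 overlaps 9330179D12Rik in the annotation, with values of at most 224 and 6 in any library. Ccne2 overlaps Ints8 and Ccnd3 overlaps Bysl, with values of at most 517 and 819.

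**Figure D2:**
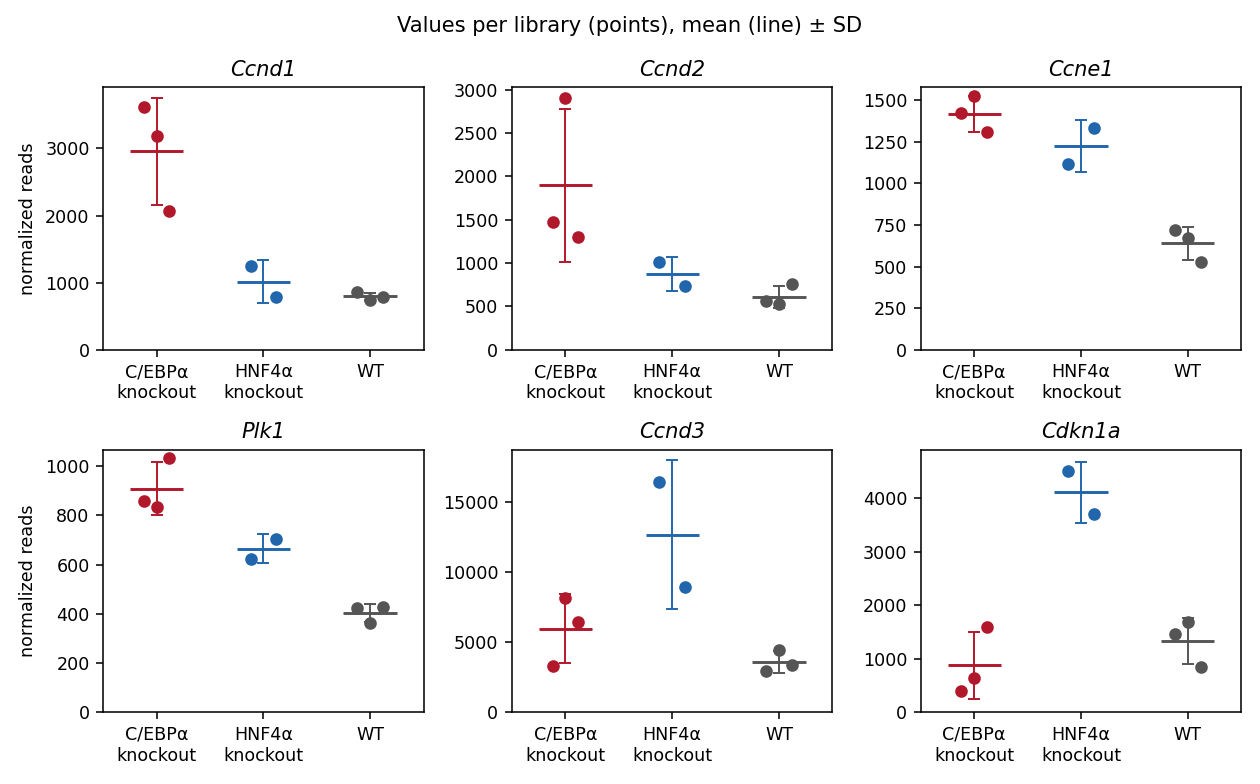
Normalized reads per library (points) with the group mean (line) and SD (bar) for the 5 genes that passed a test and Ccnd3, with 3 C/EBPα knockout, 2 HNF4α knockout and 3 WT libraries in each panel. Ccnd1, Ccnd2, Ccne1 and Plk1 are above WT in all 3 C/EBPα knockout libraries, whereas Ccnd3 and Cdkn1a are highest in the HNF4α knockout.

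Plk1, a kinase needed for spindle assembly and mitotic exit (chr7:129302951-129313389, mm9, plus strand), was the only mitotic gene among the 40 that passed. It had 858, 834 and 1032 normalized reads in the C/EBPα knockout, against 422, 361 and 428 in WT, which did not overlap (2.24-fold, log2 1.17 ± 0.28, adjusted p = 0.046). The other 8 mitotic kinases, checkpoint and chromosomal passenger genes had estimates of 0.36 to 0.98 and none passed. In Aurka, Aurkb and Bub1b the groups did not overlap, which held as higher for 8.54% of all genes. Bub1b, a spindle checkpoint kinase gene, had 1519, 1237 and 1744 in the C/EBPα knockout, against 698, 629 and 970 in WT (log2 0.98 ± 0.31, adjusted p = 0.13). The mitotic cyclins and Cdk1 had a median log2 change of 0.78, with 0 of 4 passing and 3 of 4 at an unadjusted p under 0.05. The shares of all genes as higher were 0.883% and 5.71%. Cdk1, the kinase that drives mitosis, had 2067, 1834 and 1587 in the C/EBPα knockout, against 695, 1209 and 865 in WT (log2 1.02 ± 0.32, adjusted p = 0.139). Ccnb1, its cyclin B1 partner, had 1607, 2046 and 1355 in the C/EBPα knockout, against 911, 884 and 1163 in WT (log2 0.75 ± 0.30, adjusted p = 0.27). For both genes every knockout library was above every WT library.

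Ccna2, the S and G2 phase cyclin gene, had 4886, 6858 and 3389 normalized reads in the C/EBPα knockout, against 2910, 3958 and 3374 in WT, and the groups overlapped (log2 0.52 ± 0.35, adjusted p = 0.592). The 5 genes of chromosome and spindle machinery (Top2a, Kif11, Kif23, Ect2 and Cenpe) had estimates of 0.13 to 0.74, none with groups apart and none at an unadjusted p under 0.05. The shares of all genes as higher were 8.54% and 5.71%. Top2a, the topoisomerase that untangles chromosomes, had 7593, 5130 and 5577 in the C/EBPα knockout, against 4405, 4493 and 6025 in WT (log2 0.29 ± 0.36, adjusted p = 0.811). The proliferation marker Mki67 had overlapping groups, with 19917, 15442 and 6800 in the C/EBPα knockout, against 5273, 8756 and 16260 in WT (log2 0.49 ± 0.55, adjusted p = 0.777).

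Genes that load and start the replicative helicase were above 0 in 9 of 9 cases, with a median log2 change of 0.74, and in 6 of 9 the groups did not overlap. None of the 9 passed, and 3 had an unadjusted p under 0.05. Of all genes, 51.5% were above 0 and 8.54% had groups apart as higher. As higher, 0.883% of all genes passed and 5.71% had an unadjusted p under 0.05. Mcm7, a helicase subunit gene, came nearest with 2907, 3043 and 2811 normalized reads in the C/EBPα knockout, against 1141, 1456 and 1326 in WT (log2 1.17 ± 0.29, adjusted p = 0.0537). Mcm7 overlaps 5 other genes, and since the strand of counting is not given in the sources used here, their reads cannot be told apart from its own. The same limit holds for other members with overlaps, such as Cdc20 with Elovl1 (at most 1929) and Cdc45 with Ufd1l (at most 568). Mcm2, another subunit, had 3770, 4899 and 3710 in the C/EBPα knockout, against 2655, 2708 and 2607 in WT, with no overlap (log2 0.62 ± 0.30, adjusted p = 0.391). Pcna, the sliding clamp of DNA polymerase, had 3849, 8704 and 3458 in the C/EBPα knockout, against 2208, 3931 and 2319 in WT, with overlap (log2 0.84 ± 0.43, adjusted p = 0.428). Tk1, Rrm1 and Rrm2, which supply nucleotides, had estimates of 0.25 to 0.67 and did not pass.

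Among the regulators, Foxm1, a transcription factor of G2 and mitosis genes, had 1364, 960 and 2103 normalized reads in the C/EBPα knockout, against 858, 567 and 851 in WT, with no overlap (log2 0.91 ± 0.35, adjusted p = 0.244). E2f1, the transcription factor of S phase genes, had 788, 841 and 1505 in the C/EBPα knockout, against 573, 1073 and 443 in WT, with overlap (log2 0.62 ± 0.39, adjusted p = 0.556). The kinase inhibitor gene Cdkn1a had 404, 640 and 1584 in the C/EBPα knockout, against 1466, 1684 and 855 in WT, also with overlap (log2 -0.79 ± 0.47, adjusted p = 0.524).

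Other genes of the pathway were taken from 5 lists, also chosen with earlier results of these data known. They are to be read against the shares of all genes in this comparison, 51.5% above 0, 8.54% with groups apart as higher and 10.3% as lower, 5.71% and 8.71% at an unadjusted p under 0.05 and 0.883% and 2.86% passing. All 35 other replication genes were above 0 in the C/EBPα knockout, with a median log2 change of 0.85, 16 with groups apart, 0 passing and 15 at an unadjusted p under 0.05. Of 47 other mitosis genes, 45 were above 0, with a median of 0.59, 13 with groups apart, 0 passing and 5 at an unadjusted p under 0.05. Of 20 other G1 regulators 1 passed as higher, Mycn, a growth-promoting transcription factor, with 461, 217 and 285 normalized reads in the C/EBPα knockout, against 57, 53 and 76 in WT. The groups did not overlap (log2 2.30, adjusted p = 0.0271). Of 10 other inhibitors and pocket proteins 9 were tested and 1 passed as lower, Btg1, an antiproliferative gene, with 686, 816 and 1458 in the C/EBPα knockout, against 4352, 4240 and 3083 in WT (log2 -2.04, adjusted p = 0.0068). Of 16 p53 targets, 2 passed as lower and 0 as higher, with a median of -0.38. Without C/EBPα knockout replicate 2 the median was 0.56 for replication genes and 0.0038 for p53 targets. Fas, a death receptor gene, had 110, 111 and 58 in the C/EBPα knockout, against 453, 382 and 396 in WT (log2 -2.19, adjusted p = 0.00857), and Perp, a cell adhesion gene, had 293, 275 and 374 in the C/EBPα knockout, against 1178, 998 and 783 in WT (log2 -1.64, adjusted p = 0.0148). For Btg1, Fas and Perp every knockout library was below every WT library. Leaving out 1 library ended the calls of Btg1 and Fas without WT replicate 1 (adjusted p = 0.0523 and 0.0712), of Mycn without C/EBPα knockout replicate 1 or any WT replicate (up to 0.125), and of Perp without WT replicate 1, WT replicate 2 or C/EBPα knockout replicate 1 (up to 0.122).

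Markers of other cell types were set beside these genes, to be read against the shares of all genes in the C/EBPα knockout against WT. These were 51.5% above 0, 0.883% passing as higher and 2.86% as lower. At an unadjusted p under 0.05 they were 5.71% as higher and 8.71% as lower. Of 26 erythroid markers 25 were measured, and in the C/EBPα knockout 0 passed, 2 had an unadjusted p under 0.05, 20 were above 0 and the median log2 change was 0.37. Their summed level was 1262198 to 2403094 in the C/EBPα knockout, 4113756 to 7012167 in the HNF4α knockout and 1088058 to 4028358 in WT, and none of the 25 was at 0 in any group. Markers of haematopoietic stem and progenitor cells summed to 8772 to 9753 in the C/EBPα knockout, 8255 to 9345 in the HNF4α knockout and 8164 to 8587 in WT, with 0 of 10 passing and 1 higher and 2 lower at an unadjusted p under 0.05 in the C/EBPα knockout. Bile duct markers passed as higher in the C/EBPα knockout in 4 of 8 tested of 9 listed (Sox9, Spp1, Prom1 and Cldn7), against 0.883% of all genes. They summed to 9182 to 11375 in the C/EBPα knockout, 2593 to 2970 in the HNF4α knockout and 1559 to 3027 in WT. Hepatocyte markers summed to 343490 to 1282947 in the C/EBPα knockout, 1427866 to 1953091 in the HNF4α knockout and 3156680 to 4766505 in WT, and 9 of 10 had estimates below 0 in the C/EBPα knockout. Megakaryocyte markers summed to 2614 to 4358 in the C/EBPα knockout, 6982 to 7820 in the HNF4α knockout and 5688 to 7843 in WT, with 7 of 7 below 0, 0 passing and 3 at an unadjusted p under 0.05. Lymphocyte markers summed to 891 to 1025 in the C/EBPα knockout, 1142 to 1496 in the HNF4α knockout and 1449 to 1525 in WT, with 6 of 7 tested below 0, 0 passing and 2 at an unadjusted p under 0.05. Macrophage markers summed to 6338 to 23315 in the C/EBPα knockout and 15881 to 17590 in WT, with 11 of 12 below 0, 0 passing and 0 at an unadjusted p under 0.05. Endothelial markers were below 0 in 10 of 12 cases. Stellate cell and fibroblast markers were above 0 in 6 of 11, and neutrophil and granulocyte precursor markers in 6 of 9. None of these markers passed, and 1 stellate marker was lower at an unadjusted p under 0.05. The part of these cell types in the cell cycle values was not tested, and in whole liver more cells of a type and more RNA per cell cannot be told apart.

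Whichever single library was left out, Ccnd1 had an adjusted p of at most 0.0447, whereas Ccnd2 and Ccne1 passed only in the fit that left out C/EBPα knockout replicate 3, with values of up to 0.187 for Ccnd2, 0.155 for Ccne1 and 0.187 for Plk1. Without WT replicate 1, the only library with Ddx3y above 109, Ccnd1 was the only one of the 40 to pass. With libraries scaled to equal totals the median of all genes moved to 0.53, the members' median stood 0.65 above it, against 0.64 before, 10 members passed, and 40.6% of all calls were lower, against 76.4%.

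In the HNF4α knockout the cell cycle genes had no common direction. None of 40 passed with limma, against 1.54% of all genes as higher and 3.17% as lower, and at an unadjusted p under 0.05 there were 7 higher and 0 lower, against 9.85% and 10.7% of all genes. Estimates were above 0 in 21 of 40 genes, against 50.6% of all genes, with a median of 0.22, against 0.02, and the members' median was 0.24 without HNF4α knockout replicate 1, with 27 of 40 above 0, and -0.15 without replicate 2. Leaving out WT replicate 1 gave 0.08, and leaving out WT replicate 3 gave 0.13. Groups did not overlap in 11 higher and 4 lower genes of 40, against 22.1% and 22.4% of all genes. The SE of the 40 genes ran from 0.32 to 0.61. Both knockouts were compared with the same 3 WT libraries, so the pair of comparisons is not independent and their values are only set side by side.

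Ccnd3 had the smallest adjusted p of the 40. It had 16379 and 8907 normalized reads in the HNF4α knockout, against 2974, 4430 and 3350 in WT, and both knockout libraries were above all WT libraries (log2 1.77 ± 0.47, adjusted p = 0.0594). Cdkn1a, whose protein blocks cyclin-dependent kinases, had 4513 and 3709 in the HNF4α knockout, against 1466, 1684 and 855 in WT, again with no overlap (log2 1.67 ± 0.53, adjusted p = 0.105). E2f1 had 1346 and 1608 in the HNF4α knockout, against 573, 1073 and 443 in WT, and did not overlap either (log2 1.18 ± 0.44, adjusted p = 0.162). Groups were apart as higher in 22.1% of all genes. HNF4α knockout replicate 1, which held the muscle RNA, was the higher of the pair for Ccnd3 and Cdkn1a, and the other replicate was still above every WT library in all 3 genes. Without it the log2 changes were 1.33 for Ccnd3, 1.53 for Cdkn1a and 1.31 for E2f1.

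The 5 chromosome and spindle genes all had estimates below 0 in the HNF4α knockout, with a median of -0.68. HNF4α knockout replicate 1, with the muscle RNA, was lower in their summed level (3784, against 7238 in replicate 2 and 7384 to 10967 in WT), and without it the median was -0.25, with all 5 still below 0. Without WT replicate 3 the median was -0.34, and without HNF4α knockout replicate 2 it was -1.12. Top2a had 2140 and 4138 normalized reads in the HNF4α knockout, against 4405, 4493 and 6025 in WT, which did not overlap (log2 -0.73 ± 0.41, adjusted p = 0.335, and -0.25 without replicate 1). Ccne2 had 627 and 621 in the HNF4α knockout, against 947, 899 and 1127 in WT (log2 -0.66 ± 0.47, adjusted p = 0.453), and both knockout values were below WT. Ccne1 had 1115 and 1336, Plk1 623 and 705, Cdk1 1217 and 1848 and Mcm2 5446 and 4116 in the HNF4α knockout. Each of these 4 genes was above all 3 of its WT values, and their log2 changes were 0.94, 0.72, 0.74 and 0.83. Of all genes, 22.1% had groups apart as higher and 22.4% as lower in this comparison. For Ccna2, Ccnb1, Mki67, Pcna, Foxm1 and Ccnd2 the groups overlapped, with log2 changes of -0.10, -0.20, -0.40, 0.18, 0.26 and 0.51.

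The other lists had median log2 changes in the HNF4α knockout of 0.02 for replication, -0.16 for mitosis, 0.10 for G1 regulators, -0.10 for inhibitors and 0.30 for p53 targets. In the first 4 lists 0 genes passed, and an unadjusted p under 0.05 was reached by 2 replication genes as higher, by 1 mitosis gene as higher and 4 as lower, and by 1 G1 regulator and 1 inhibitor as higher, beside 9.85% of all genes as higher and 10.7% as lower. Without HNF4α knockout replicate 1 the medians of these 4 lists were 0.12, 0.14, 0.28 and 0.03. Of the p53 targets, Perp had 114 and 98 normalized reads in the HNF4α knockout, against 1178, 998 and 783 in WT (log2 -3.19, adjusted p = 0.000685), and Fas had 93 and 85 in the HNF4α knockout, against 453, 382 and 396 in WT (log2 -2.19, adjusted p = 0.015). Both knockout libraries were below all WT libraries for each gene, and without HNF4α knockout replicate 1 the values were -3.30 for Perp (adjusted p = 0.0118) and -2.25 for Fas (adjusted p = 0.128). Fas also lost its call without HNF4α knockout replicate 2, WT replicate 1 or WT replicate 3, with an adjusted p of at most 0.128, and Perp stayed past the threshold whichever single library was left out. Erythroid markers had a median log2 change of 0.54 in the HNF4α knockout with 0 of 25 passing and 2 at an unadjusted p under 0.05. Of the stellate cell and fibroblast markers 3 of 11 passed as higher, and of the macrophage markers 1 of 12, against 1.54% of all genes. Stellate markers summed to 97805 in HNF4α knockout replicate 1, the library with the muscle RNA, and to 40797 in replicate 2, against 13828 to 21155 in WT. Macrophage markers summed to 28353 to 33578 in the HNF4α knockout, against 15881 to 17590 in WT. Neutrophil and granulocyte precursor markers summed to 102768 to 113275 in the HNF4α knockout, against 45885 to 68368 in WT, with 9 of 9 above 0, 0 passing and 3 at an unadjusted p under 0.05. Their part in the cell cycle values was not tested.

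The knockouts differed from each other in 2 of the 40 genes, 1 in each direction. With limma, 1.61% of all genes were higher and 1.87% lower in the C/EBPα knockout than in the HNF4α knockout. Ccnd1 was 2.90-fold higher in the C/EBPα knockout (log2 1.54 ± 0.36, adjusted p = 0.0444), with no overlap between its 3 and 2 libraries. Cdkn1a was 5.50-fold lower in the C/EBPα knockout (log2 -2.46 ± 0.53, adjusted p = 0.0316), again with no overlap. Bub1b came next, with 528 and 645 normalized reads in the HNF4α knockout, below its 3 C/EBPα knockout values (log2 1.35 ± 0.34, adjusted p = 0.0584). In 35 of 40 genes the estimate was higher in the C/EBPα knockout, against 50% of all genes, with a median of 0.63, against -0.00, and without HNF4α knockout replicate 1, the muscle-bearing library, these were 30 of 40 and 0.40. With all libraries 15 higher and 2 lower genes had groups apart, against 17.4% and 17% of all genes. At an unadjusted p under 0.05 there were 12 higher and 2 lower, against 8.71% and 9.94% of all genes. The 5 chromosome and spindle genes were all higher in every C/EBPα knockout library than in either HNF4α knockout library, against 17.4% of all genes, with a median difference of 1.01 (0.85 to 1.28) and 0 of 5 passing. Without HNF4α knockout replicate 1 the median was 0.70 (0.25 to 1.01). Ccne1 and Plk1 did not pass, with differences of 0.21 (95% interval -0.48 to 0.91) and 0.45 (-0.25 to 1.14), and Ccnd3 had -1.11 ± 0.47 (adjusted p = 0.239). The Ccnd1 call was lost without any single library other than C/EBPα knockout replicate 3 (adjusted p up to 0.26), and the Cdkn1a call without WT replicate 1, C/EBPα knockout replicate 1 or 2, or either HNF4α knockout replicate (up to 0.281).

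Single libraries leaned on GC content, both over all genes and over the cell cycle genes. Across 17771 genes, the difference of a library from the others of its group had a Spearman rho with the GC content of the gene of -0.373 in C/EBPα knockout replicate 1, 0.357 in C/EBPα knockout replicate 3 and -0.4 in WT replicate 3. Over the 40 cell cycle genes the same rho was -0.601, 0.614 and -0.653, further from 0 in each. The median log2 difference of the 40 genes in these libraries was 0.116, -0.259 and 0.229. These are descriptions across genes that share a library and are not independent. The 40 genes had a median GC content of 46.9%, against 46.6% for all genes tested. With the GC trend removed 4 members still passed in the C/EBPα knockout, and without WT replicate 3 and C/EBPα knockout replicate 1 together 0 passed, with Ccnd1 at a log2 change of 1.69 (adjusted p = 0.126).

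**Figure D3:**
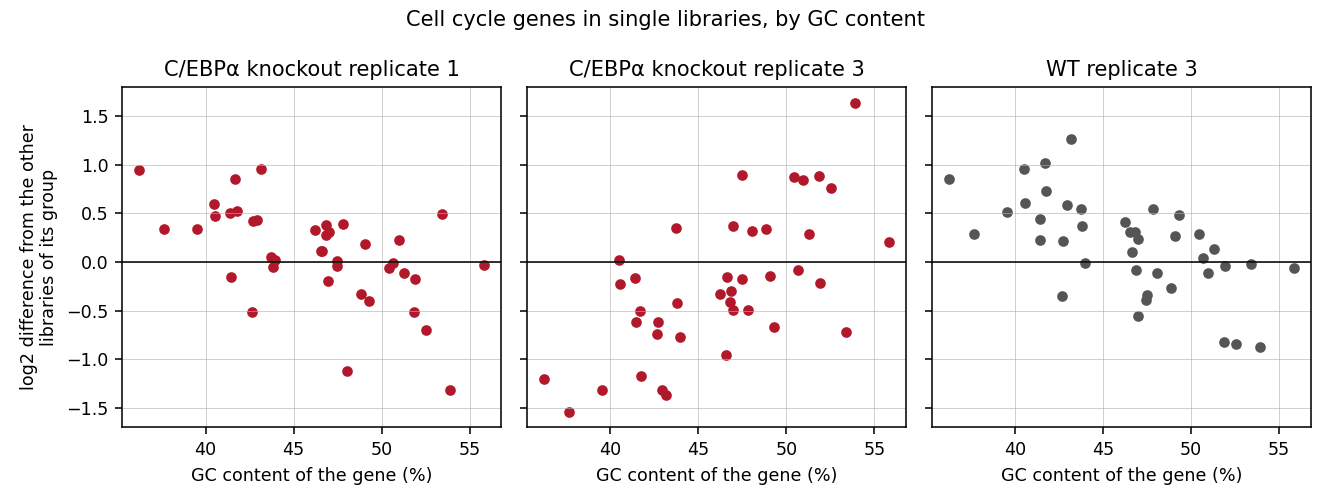
Log2 difference of a single library from the other libraries of its group (vertical axis) against the GC content of the gene in percent (horizontal axis), with 1 point for each of the 40 cell cycle genes. C/EBPα knockout replicate 1 and WT replicate 3 slope downward and C/EBPα knockout replicate 3 slopes upward, with Spearman rho of -0.601, -0.653 and 0.614.

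Both factors had peaks near these genes. C/EBPα peaks were most frequent at P0.5, as they were over all genes tested (47.3%). HNF4α peaks were most frequent at E15.5, whereas over all genes they were most frequent at P60 (29.5%). A gene was counted as bound when each replicate had a peak reaching within 1 kb of its start, whether or not the 2 peaks overlapped. C/EBPα peaks stood at 2 of 40 genes at E15.5 (6.8% of all genes tested), 12 at E18.5 (32.7%), 24 at P0.5 (47.3%), 10 at P14 (26.4%) and 9 at P60 (24.7%). The members' shares were 5%, 30%, 60%, 25% and 22.5%, and the number of C/EBPα regions called also differed by stage, at 10419, 65021, 94619, 34737 and 44217. HNF4α peaks stood at 12 of 40 genes at E15.5 (22.1% of all genes), 3 at E18.5 (6.08%), 7 at P0.5 (22.8%), 4 at P14 (21.4%) and 7 at P60 (29.5%). The members' HNF4α shares were 30%, 7.5%, 17.5%, 10% and 17.5%, the HNF4α regions called numbered 35764, 18359, 21262, 23800 and 36322, and no test of these shares against other genes was made. Both HNF4α lists at P0.5 are identical and count as 1 list.

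**Figure D4:**
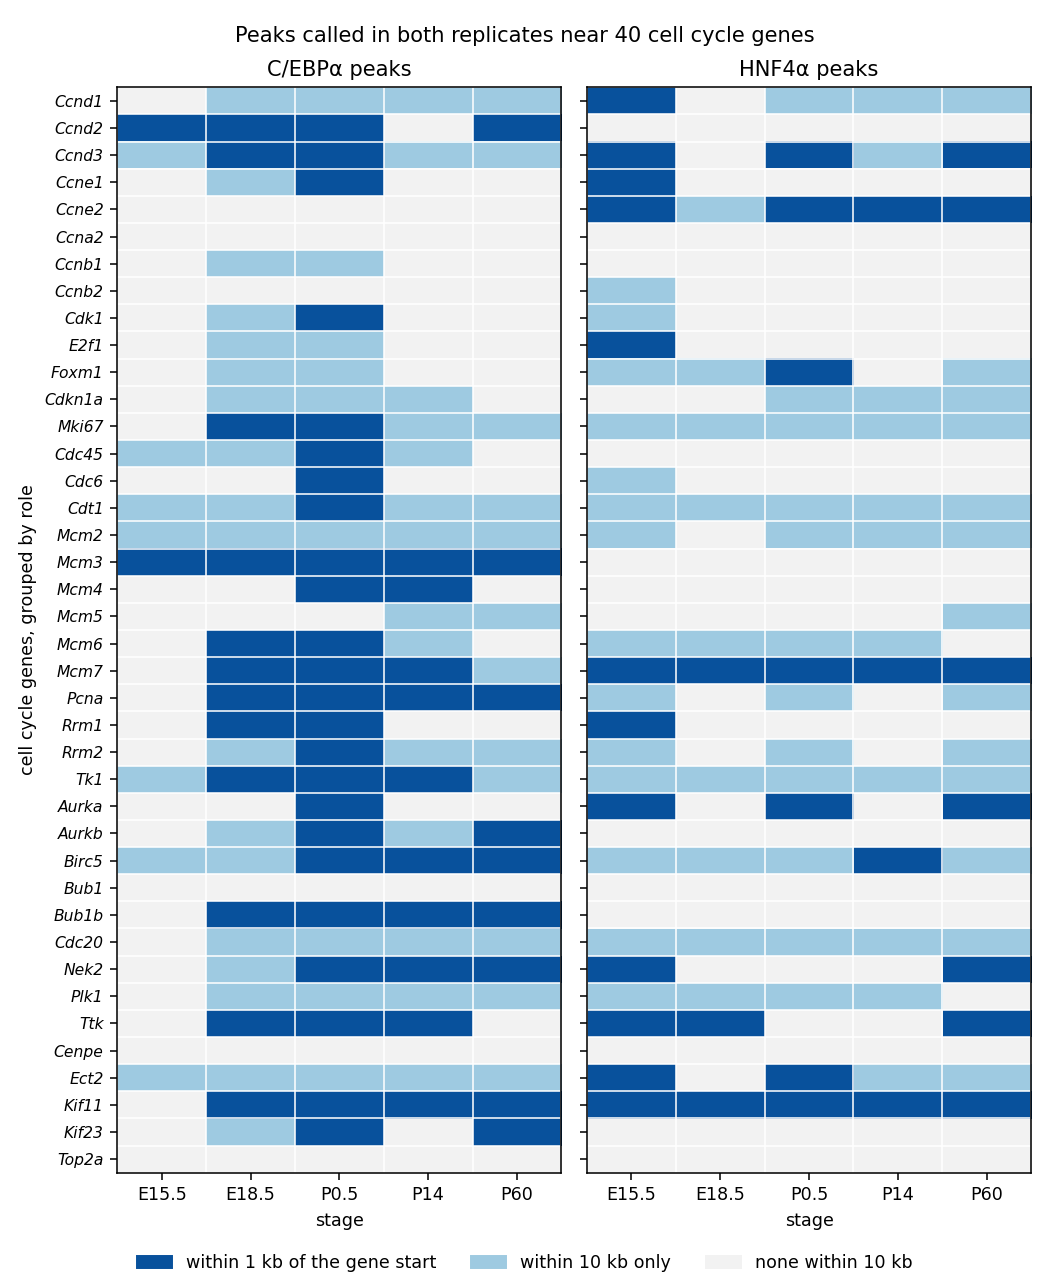
C/EBPα (left) and HNF4α (right) peaks of both replicates near the 40 cell cycle genes, grouped by role down the page and by stage across. Dark cells mark a peak of each replicate within 1 kb of the gene start, light cells within 10 kb only, and grey cells mark the rest. The dark C/EBPα cells number 2, 12, 24, 10 and 9 from E15.5 to P60.

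Over all stages 24 genes were bound by C/EBPα within 1 kb, or 60% against 49.8% of all genes, and 14 by HNF4α, or 35% against 39%. Within 10 kb the numbers were 34 for C/EBPα, against 81.4% of all genes, and 28 for HNF4α, against 65.1%. Within 1 kb both factors were present at 9 genes and neither at 11, and within 10 kb at 26 and 4. At every stage, C/EBPα was found at 1 gene, Mcm3, a helicase subunit, against 6.24% of all genes, and HNF4α at 2, Mcm7 and Kif11, against 4.51%. The 5 C/EBPα regions at Mcm3 were centred 137 to 171 bases before its mm9 start, and in the promoter printed above the C/EBP letters TTGCTCAA begin 162 bases before the GRCm38.p6 start. Each distance is measured from the start of its own annotation. Kif11, a spindle motor, held HNF4α regions centred 144 to 216 bases before its start at all 5 stages and C/EBPα regions 98 to 179 bases before it from E18.5 to P60, and its promoter in the table has neither the C/EBP nor the HNF4 letters. Ccnd2, Bub1b, Pcna and Kif11 had C/EBPα at 4 stages.

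At the genes whose RNA passed, binding differed from gene to gene. Ccnd2 had a C/EBPα region centred within 58 bases of its start at E15.5, E18.5, P0.5 and P60 and none within 10 kb at P14, and no HNF4α region within 10 kb at any stage. Ccnd1 had C/EBPα regions 1.83 kb before its start at P0.5 and 1.98 kb before it at P14, others 10.2 kb and 10.3 kb after its start at E18.5 and P60, just past the gene's end, and HNF4α regions 42 bases after its start at E15.5, 10.0 kb after it at P0.5, 10.2 kb at P14 and 6.33 kb at P60. Ccne1 had a C/EBPα region 961 bases before its start at P0.5 and 4.7 kb before it at E18.5, and an HNF4α region 712 bases before it at E15.5. Plk1 had neither within 1 kb, but both factors had regions 6.72 to 6.82 kb before its start, C/EBPα from E18.5 to P60 and HNF4α from E15.5 to P14. Cdkn1a had C/EBPα regions 4.43 to 4.60 kb after its start from E18.5 to P14 and HNF4α regions 3.61 to 3.87 kb after it from P0.5 to P60. Ccnd3, which passed in no comparison, had HNF4α regions centred 11 to 49 bases after its start at E15.5, P0.5 and P60 and a C/EBPα region within 1 kb at E18.5 and P0.5 and within 10 kb at all 5 stages.

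The change in RNA was set beside binding near the start. The 24 genes bound by C/EBPα within 1 kb had a median log2 change of 0.70 in the C/EBPα knockout and 2 that passed. The 16 others had 0.62 and 2 that passed, beside 0.883% of all genes passing as higher in this comparison. For HNF4α the 14 bound genes had a median of 0.27 in the HNF4α knockout and the 26 others 0.08, with 0 passing in either set. Differences between these sets were not tested. The peak lists carry no height, so strength of binding was not analysed here.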

How the data were processed

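RNA was measured in 8 liver libraries and C/EBPα and HNF4α binding in 20 peak lists, and 20 further ChIP samples (polymerase or input) were set aside. Tools named in the submitters' processing notes, with no roles, are TopHat2, Cufflinks, DESeq, BWA, MACS 1.4, bedtools, FastQC and bcl2fastq, with the build mm9. The RNA values deposited by the authors are a score per gene, reads that the table's name calls DESeq-normalized, rounded to whole numbers. GC content of each gene is a fraction in the deposited table, printed here as percent. Annotation version and strand of counting are not given in the sources used here. Deposited peak lists hold positions, and their score column is 0 throughout, so peaks have no height.

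Genes reaching 10 in 2 or more libraries were tested (17771 of 37583). Since the values are not raw counts, limma 3.58.1 in R 4.3.3 was used on log2(value + 1) and no count test, with a variance trend, all 8 libraries in 1 fit and 3 two-sided contrasts. The threshold was an adjusted p under 0.05 (Benjamini-Hochberg over all genes tested). The fit was tested on simulated data. A stage's bound region is a merged interval with a peak in each replicate overlapping by at least 1 bp, and distance runs from the gene start in mm9. Counts of bound genes ask only that each replicate has a peak reaching into the window. Promoters and motifs came from RefSeq, GRCm38.p6, and coordinates of the builds were not mixed. Alternatives were another pseudocount, filters, scalings, GC correction, replicate block and leaving out libraries, plus wider windows for peaks.

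Members and lists were chosen with earlier results of these data known. Genes with values in every library are those that passed in any comparison and 16 named cell cycle genes, and of each other list up to 4 that passed. Mcm7 and Bub1b were named for their nearness to the threshold, after their values were seen.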

Additional observations from a re-analysis of the deposited data

Results flagged for a closer look

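Ccnd1 and Cdkn1a differed between the knockouts themselves, tested in 1 contrast of C/EBPα over HNF4α knockout in the fit of all genes, with the WT libraries adding to the estimate of spread. For Ccnd1 this difference was 1.54 on the log2 scale (adjusted p = 0.0444), with 3618, 3191 and 2069 normalized reads in the C/EBPα knockout and 1241 and 792 in the HNF4α knockout. For Cdkn1a it was -2.46 (adjusted p = 0.0316), with 404, 640 and 1584 in the C/EBPα knockout and 4513 and 3709 in the HNF4α knockout. All 3 C/EBPα knockout libraries lay on one side of both HNF4α knockout libraries for each gene. The Ccnd1 call ended without any single library other than C/EBPα knockout replicate 3, and the Cdkn1a call ended without WT replicate 1, C/EBPα knockout replicate 1 or 2, or either HNF4α knockout replicate, and neither passed with only the 2 groups compared.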

How the results depend on the processing

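Of 19 alternatives, Ccnd1 in the C/EBPα knockout against WT passed in 18, Ccnd2, Ccne1 and Plk1 in 6 each, and the median of the 40 genes stayed above that of all genes in all 19. The number of cell cycle genes past the threshold in that comparison, 4, was 2 without a filter on low values, 10 with equal library totals, 1 without a variance trend, 1 with only the libraries of the 2 groups compared and 0 without WT replicate 3 and C/EBPα knockout replicate 1 together, and leaving out each library gave 1 to 3. In the HNF4α knockout against WT the number, 0, was 1 with equal library totals (Ccnd3), 1 with equal upper quartiles (Ccnd3) and 2 with only the 2 groups compared (Ccnd3 and Cdkn1a), and leaving out each library gave 0 to 2. Between the knockouts the number, 2, was 0 without a filter, without a variance trend, with only the 2 groups compared or without WT replicate 3 and C/EBPα knockout replicate 1 together, 7 with equal library totals, and 0 to 3 leaving out each library. HNF4α peaks stood at 14 genes within 1 kb, at 28 within 10 kb and at 23 with a peak in either replicate. The members' share turned against that of all genes. It was 35% against 39% within 1 kb, 70% against 65.1% within 10 kb, 57.5% against 54.4% with either replicate and 50% against 47.4% without replicate 2. C/EBPα peaks stood at 24 genes, and at 22 to 34 under its alternatives. Where leaving out a library left 1 HNF4α knockout library, that library was assumed to vary like the other groups. The causes of these shifts were not tested.

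With a replicate block 1 cell cycle gene passed in the C/EBPα knockout against WT (Ccnd1), 0 in the HNF4α knockout and 0 between the knockouts, and with the block and the GC trend removed 1, 0 and 1. The labels state no pairing of the samples by number. Same-numbered libraries had correlations of their deviations from -0.231 to 0.19, and not every library correlated best with its own number. These values cannot exclude a pairing, since deviations are taken from group means and the 2 HNF4α knockout libraries mirror each other.

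Genes whose estimate changed sign were not past the threshold either way. In the C/EBPα knockout against WT, Ccne2 was at 0.32 with equal totals and at 0.031 with the GC trend removed, with or without the block, and ran from -0.59 to 0.32 when single libraries were left out. In the HNF4α knockout against WT with the GC trend removed, Ccnd1 was at -0.16, Ccne2 at 0.033, Ccna2 at 0.12 and Ccnb1 at 0.031, and with block and GC Ccnd1 was at -0.29 and Ccnb1 at 0.026. Pcna was at -0.0023 with the block, and Mki67 at 0.021 without WT replicate 3 and C/EBPα knockout replicate 1 together. With single libraries left out, Ccnd1 ran from -0.0036 to 0.64, Ccna2 from -0.32 to 0.11, Ccnb1 from -0.42 to 0.014, Mki67 from -0.89 to 0.091 and Pcna from -0.19 to 0.55. The number of libraries, 2 or 3 per group, limits what can be detected.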
